A study of Homo sapiens with 14 samples.

Results

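Integrins are cell-surface receptors for the extracellular matrix, and focal adhesions are the protein assemblies that couple them to the actin cytoskeleton. The RNA levels of 32 genes of this machinery were followed in IMR90, a human lung fibroblast line. The genes were taken as a fixed list of symbols out of the 54628 symbols counted in every library. They comprise 11 integrin alpha subunits, 5 beta subunits and 16 cytoplasmic components. A filter on low counts kept 30 of the 32.

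The 14 libraries form 7 groups of 2. Untreated cells were either left alone (WT) or depleted of HMGB2, a chromatin architectural protein, by siRNA (siHMGB2). All other cells received 10 µM inflachromene (ICM), a small molecule used here to induce senescence, for up to 6 days. ICM-treated cells are labelled as having no knockdown (ICM 1 to 4) or an siRNA against SRRM2, BANF1 or CTCF (siSRRM2, siBANF1, siCTCF), 2 libraries each. The ICM libraries were taken as 2 pairs, ICM 1-2 and ICM 3-4, because the labels of ICM 3, ICM 4 and both siCTCF libraries are of another form. In those 4 libraries the cell-line field differs in number from the IMR90 of the titles. No control siRNA is named in the labels, so a knockdown and the delivery of an siRNA cannot be told apart in any siRNA comparison. The labels name 2 isolates of the line without saying which library came from which. Nothing in the labels says that replicates came from separate cultures, so p-values measure only the spread between these libraries. The edgeR test also pools part of that spread over genes.

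Each integrin is a pair of an alpha and a beta subunit, and the pair sets the ligand. ITGA1, ITGA2, ITGA10 and ITGA11 give collagen receptors with ITGB1, ITGA3, ITGA6 and ITGA7 give laminin receptors, and ITGA5, ITGA8 and ITGAV recognise the RGD motif of fibronectin, vitronectin and related proteins. Inside the cell, talins (TLN1, TLN2) and kindlin-2 (FERMT2) bind beta tails and activate the receptor, and the kinase PTK2 with the scaffolds PXN and BCAR1 relays the signal. Vinculin (VCL), alpha-actinins (ACTN1, ACTN4), filamins (FLNA, FLNC), zyxin (ZYX) and tensin (TNS1) connect the site to actin. In fibroblasts these genes are part of the contractile and matrix-sensing programme.

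Gene counts ranged from 33561766 to 41168932 per untreated library (WT, siHMGB2). The first ICM set (ICM 1-2 with siSRRM2 and siBANF1) had 39435430 to 58257456 and the second (ICM 3-4 with siCTCF) 22336161 to 26779027. Small RNA genes took 3.16% to 6.05% of the counts in the first set and at most 0.00848% elsewhere, so library composition moves with ICM treatment in that set. WT has no library with the labels of the second set, so the set and the treatment cannot be told apart in ICM 3-4 against WT. In ICM 1-2 against WT, the treatment and the difference in library composition cannot be told apart either. HMGB2 stood at 27.7 and 28.0 CPM (a gene's counts scaled to a common library total) in WT, against 3.18 and 3.52 CPM in siHMGB2. SRRM2 was lowest in the libraries labelled siBANF1 (59.0 and 17.0 CPM, against 76.1 and 76.4 CPM in those labelled siSRRM2), and BANF1 was not lower there (17.0 and 36.7 CPM) than in ICM 1-2 (13.5 and 32.7 CPM). The names of the deposited tables give these 4 libraries the other of the 2 targets than their titles do. The titles were followed, and which target each pair received is therefore uncertain wherever siSRRM2 or siBANF1 is named. CTCF was at 71.5 and 23.0 CPM in siCTCF against 94.9 and 91.9 CPM in ICM 3-4. Fibroblast markers were present in every library. The defining epithelial marker CDH1, the endothelial marker CDH5 and the leukocyte markers PTPRC and CD3E were at or near 0 (at most 0.0894 CPM), but other markers of these lists were not: KRT18 ranged from 17.7 to 194 CPM, TEK from 2.50 to 241 CPM (highest in ICM 1), CD68 from 39.1 to 104 CPM and CD14 from 0.243 to 12.9 CPM.

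In untreated cells the most abundant integrin transcript was ITGB1, the common beta subunit, on chromosome 10 (GRCh38, 32900319 to 33005792, minus strand). Per kilobase of exon it stood at 298 ± 40.5 CPM (SD, n = 2), which was 72.7% of the summed level of the 5 beta subunits. ITGB5, a partner of ITGAV that binds vitronectin, held 21.8% and ITGB3, another partner of ITGAV, 5.0%. ITGB8 held 0.493%, and ITGB4, which anchors epithelial cells through hemidesmosomes, was detected at 0.354 ± 0.121 CPM only.

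Among the alpha subunits, ITGA2 took 34.3% ± 3.48 of the summed per-kilobase level in WT (SD, n = 2), ITGA5 24.1% ± 0.0557, ITGAV 18.6% and ITGA1 8.61%. The order of the leading pair depended on the length used: per kilobase of the longest transcript, ITGA2 held 27.3% and ITGA5 28.9%. ITGA11 held 5.56% and ITGA3 3.62%. The remaining 5 alpha subunits, ITGA8, ITGA6, ITGA4, ITGA7 and ITGA10, each held 2.04% or less.

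Of the cytoplasmic components, FLNA, an actin crosslinker that binds beta tails, was the most abundant per kilobase in WT (204 ± 33.5 CPM per kilobase, n = 2). VCL (78.8 ± 14.2) and ACTN1 (69.8 ± 10.6) came next, with overlapping ranges. VCL was the higher in each WT library (68.7 against 62.3, and 88.8 against 77.2). Their order depends on the length used: the longest transcript has 7995 bases for VCL and 4674 for ACTN1, against 9992 and 10626 of exon. ILK, the pseudokinase of the ILK-PINCH-parvin complex, stood at 53.6 ± 4.96 and TLN1 at 53.4 ± 6.26 CPM per kilobase. ILK shares 78.5% of its exonic bases with other genes, TAF10 among them, ITGB3 shares 51.6% with an overlapping gene, and PXN, VCL and ACTN4 share 12.4%, 11.1% and 14.2%. Whether counting used strand is not given in the sources used here. How far reads of shared bases are missing from the counts of these genes, or mixed into them, cannot be told. Reads listed as ambiguous, on a line left out here, were 1.72% and 1.62% of all lines' counts in WT. They were 4.43% and 6.73% in ICM 1 and ICM 2, and 1.91% and 1.81% in ICM 3 and ICM 4.

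ZYX and ACTN4 were listed near 0 throughout, with 4 and 22 counts over all 14 libraries. EIF3K and ECH1, genes that every cell uses, were also listed near 0 (6 and 44 counts), whereas CASP2 had 10838 counts and FAM98C 7634. ZYX and ACTN4 were therefore not tested, and no level or fold change is given for them.

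**Figure D1:**
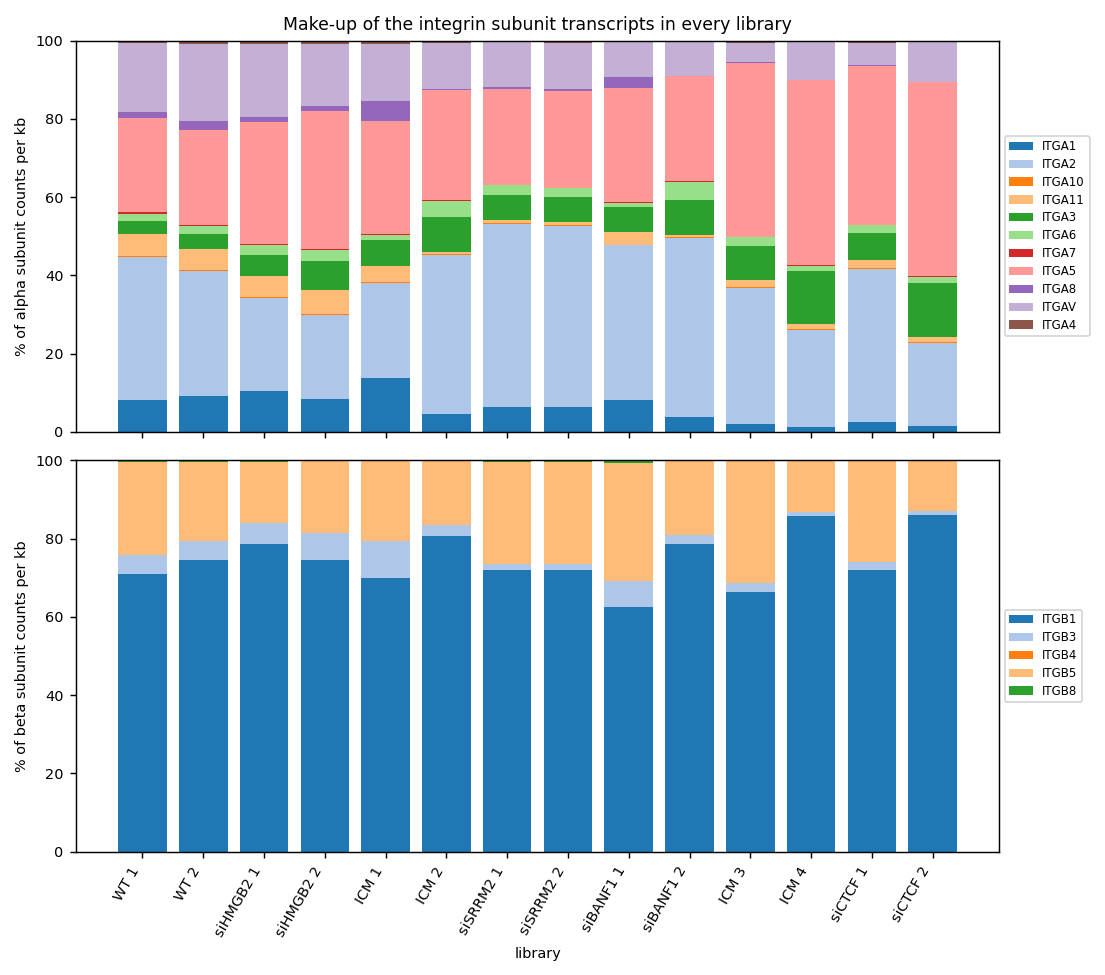
Share of each alpha subunit (one panel) and each beta subunit (the other panel) in the summed CPM per kilobase of exon of its class, in percent, for the 14 libraries. ITGA5 holds 24.1% of the alpha sum in both WT libraries and 44.3% to 47.3% in ICM 3 and ICM 4, while ITGB1 leads the beta subunits in every library.

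In siHMGB2 against WT, a comparison without ICM, most adhesion genes were at higher levels. Loss of HMGB2 and delivery of an siRNA cannot be told apart here, as no control siRNA is named. Of the 30 members tested, 20 rose and 0 fell (edgeR quasi-likelihood test, Benjamini-Hochberg adjusted p under 0.05 over 19126 genes). Over all genes 10.7% were called, 6.03% higher and 4.71% lower, and among genes averaging 10 CPM or more 9.95% higher and 7.52% lower. The median log2 fold change was 0.54 over the members and 0.00 over all genes. The changes were modest, between 1.35-fold (ITGA11) and 2.34-fold (ITGA3). In bulk RNA, a shift in the share of cells of a type and a shift in RNA per cell cannot be told apart.

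The laminin receptor subunit ITGA3 rose most (chromosome 17, 50055968 to 50090481). It had 77.7 and 98.7 CPM in WT, against 156 and 238 CPM in siHMGB2. The log2 fold change was 1.23 (SE 0.16, adjusted p 5.69e-08 in the edgeR test). ITGA6, the other widely expressed laminin receptor subunit, was at 28.4 and 32.6 CPM in WT against 49.5 and 55.1 CPM in siHMGB2 (log2 fold change 0.84, SE 0.14, adjusted p 1.69e-05 in the edgeR test). The third laminin subunit, ITGA7, a subunit of muscle cells, was not called (0.29, SE 0.23).

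ITGA5 forms the classical fibronectin receptor with ITGB1. It had 438 and 467 CPM in WT, against 701 and 865 CPM in siHMGB2 (log2 fold change 0.85, SE 0.15, adjusted p 4.42e-05). ITGB3 was at 84.0 and 95.6 CPM in WT against 147 and 176 CPM in siHMGB2, a log2 fold change of 0.91 (SE 0.14, adjusted p 3.61e-06). ITGB1 had 1622 and 1966 CPM in WT, against 2859 and 2601 CPM in siHMGB2 (log2 fold change 0.67, SE 0.16, adjusted p 0.00169). All 3 genes had both knockdown libraries above both WT libraries, an order for which no share over all genes is given here.

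Of the 4 collagen receptor subunits, ITGA1 (0.50, SE 0.15) and ITGA11 (0.43, SE 0.14) rose on the log2 scale. ITGA10 was not called (0.70, SE 0.28, adjusted p 0.105), with 2.65 and 3.40 CPM in WT and 3.58 and 5.81 CPM in siHMGB2. ITGA2, the most abundant of them, had 698 and 644 CPM in WT, against 559 and 549 CPM in siHMGB2 and was not called (-0.22, 95% interval -0.52 to 0.08). As a share of the alpha subunits per kilobase, ITGA2 was 34.3% ± 3.48 in WT and 22.7% ± 1.74 in siHMGB2, and ITGA5 was 24.1% ± 0.0557 and 33.3% ± 2.79 (SD, n = 2 each). ITGB8, which with ITGAV activates latent TGF-beta, stood at 28.9 and 32.3 CPM in WT and 25.5 and 17.6 CPM in siHMGB2 and was not called (-0.45, SE 0.16, adjusted p 0.0564). It was called lower with total-count scaling (-0.51, adjusted p 0.0225).

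Inside the cell, 12 of the 14 tested components rose with HMGB2 knockdown. They include all 3 activators, with TLN1 at 494 and 583 CPM in WT and 660 and 782 CPM in siHMGB2, and all 5 tested actin linkers, with FLNA at 1908 and 2409 CPM in WT and 2698 and 3799 CPM in siHMGB2. The log2 fold changes of the linkers were 0.54 for VCL, 0.55 for FLNC, 0.60 for ACTN1, 0.61 for TNS1 and 0.65 for FLNA. ILK rose from 174 and 199 CPM to 234 and 283 CPM and PXN from 97.3 and 112 CPM to 118 and 172 CPM. BCAR1, a substrate of PTK2, rose by 0.73 (SE 0.15) and PARVA, the parvin of the ILK complex, by 0.65 (SE 0.15). PTK2 itself (0.09, 95% interval -0.18 to 0.37) and LIMS1, the PINCH protein of the ILK complex (-0.03, interval -0.32 to 0.25), were not called, and both intervals lie within a 2-fold change.

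The count of 20 rested on single libraries. WT 2 lay above WT 1 for 27 of the 30 members. The members' median log2 ratio to the WT mean was -0.13 in WT 1 and 0.12 in WT 2, against 0.00 in both over all genes. Without WT 1 the test called 5 members higher (2.01% of all genes) and without WT 2 15 (3.65%). Without siHMGB2 1 it called 20 higher (7.47%) and 1 lower (6.36%), and without siHMGB2 2 8 higher (4.03%). Whichever library was left out, ITGA3, ITGA5, ITGA6, ITGB3 and BCAR1 stayed called, while the other 15 lost the call in at least 1 case (for ITGB1 the adjusted p was 0.144 without WT 1, for TLN1 0.519). When all 14 libraries shared a spread, 0 members passed and 2 had an unadjusted p under 0.05, but that fit called 0% of all genes. Total-count scaling gave 18 higher and 1 lower (4.91% and 6.19% of all genes), and turned the balance over all genes from 1154 higher and 901 lower to 939 higher and 1184 lower.

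**Figure D2:**
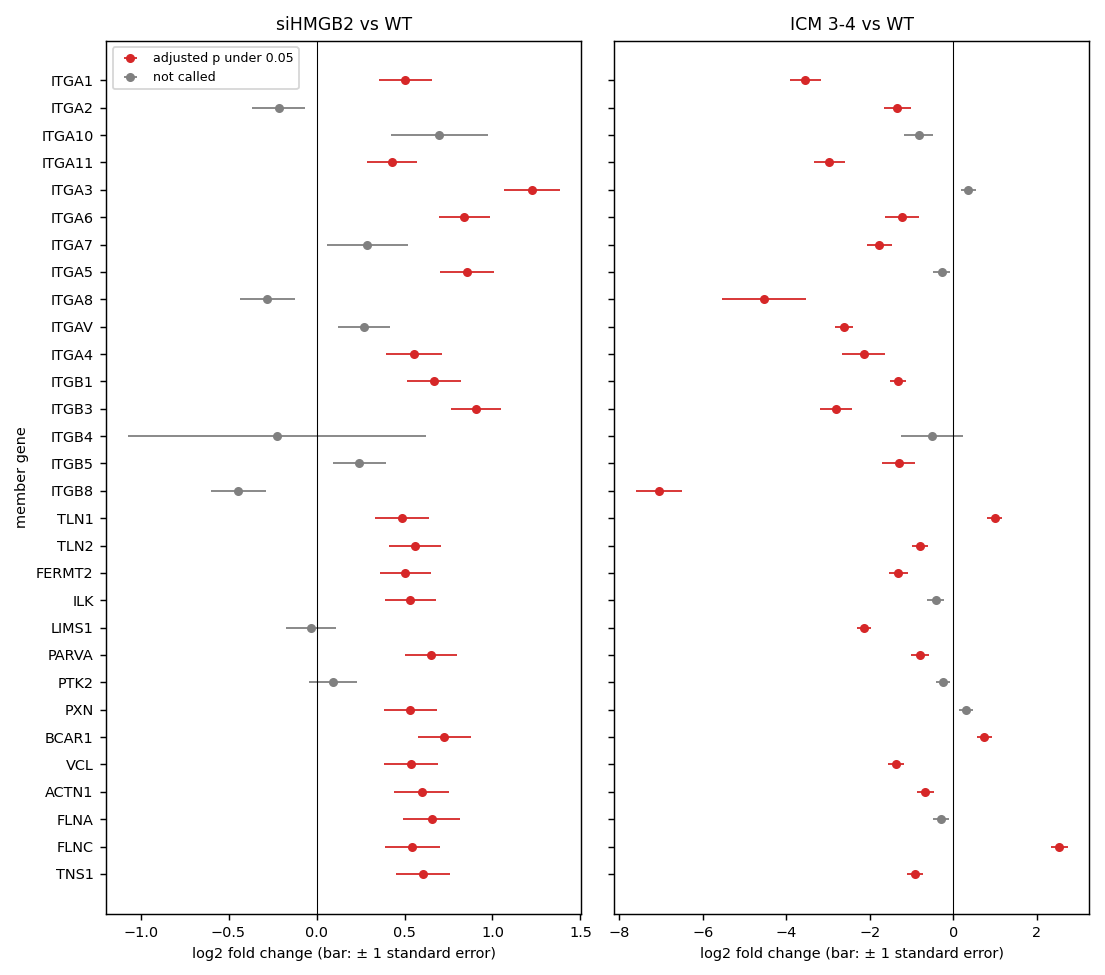
Log2 fold change of each of the 30 tested members for siHMGB2 against WT (one panel) and for ICM 3-4 against WT (the other panel, with its own scale), with bars of ± 1 standard error. Red points passed an adjusted p of 0.05: 20 of 20 called members lie above 0 with HMGB2 knockdown, and 19 of 22 lie below 0 in ICM 3-4.

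ICM 3-4 against WT had lower levels of most receptor subunits and a mixed pattern among the cytoplasmic components. Of the 30 members, 3 rose and 19 fell (edgeR quasi-likelihood test, adjusted p under 0.05), where 47% of all genes were called, 23.5% higher and 23.5% lower (30.3% and 26% among genes of at least 10 CPM). The members' median log2 fold change was -1.07, against 0.00 over all genes. None of the 16 integrin subunits rose and 12 fell, while among the 14 tested cytoplasmic components 3 rose and 7 fell. Fitted fold changes use TMM scaling and therefore differ from the ratio of CPM values. With total-count scaling the median over all genes moved to 0.18 and that of the members to -0.88, with 5 members higher and 17 lower (28.2% and 19.7% of all genes).

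ITGB8 fell most (chromosome 7, 20330702 to 20415754). It had 28.9 and 32.3 CPM in WT, against 0.0418 and 0.473 CPM in ICM 3 and ICM 4, which are 1 and 12 counts. The log2 fold change was -7.04 (SE 0.55, adjusted p 0.0001). ITGA8, whose pair with ITGB1 binds nephronectin, was at 29.3 and 47.1 CPM in WT, at 3.68 CPM in ICM 3 and at 0.0394 CPM, a single count, in ICM 4. Its log2 fold change of -4.54 (SE 1.01, adjusted p 0.00787) thus covers 2 libraries that lie far apart, and DESeq2 did not call it (adjusted p 0.0663).

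Of the 4 collagen receptor subunits, 3 fell. ITGA1 had 358 and 435 CPM in WT, against 52.3 and 24.9 CPM in ICM 3-4 (log2 fold change -3.54, SE 0.37, adjusted p 2.67e-04). ITGA11, a collagen receptor subunit of fibroblasts, was at 149 and 150.4 CPM against 29.9 and 13.5 CPM (-2.97, SE 0.37, adjusted p 5.5e-04). ITGA2 was at 698 and 644 CPM against 399 and 202 CPM (-1.34, SE 0.32, adjusted p 0.0108). ITGA10, below 6 CPM in every library, was not called.

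ITGAV, the shared alpha subunit of the vitronectin receptors, had 344 and 413 CPM in WT, against 58.7 and 83.2 CPM in ICM 3-4 (log2 fold change -2.62, SE 0.22, adjusted p 1.13e-04). Its beta partners fell as well. ITGB3 was at 84.0 and 95.6 CPM against 20.3 and 8.79 CPM (-2.81, SE 0.38), and ITGB5 was at 581 and 566 CPM against 377 and 149 CPM (-1.30, SE 0.40). ITGB1 was at 1622 and 1966 CPM against 746 and 906 CPM (-1.32, SE 0.19, adjusted p 0.00114). ITGA4, the receptor subunit for VCAM1, fell by 2.14 on the log2 scale (SE 0.52).

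ITGA5 and ITGA3 stood apart from the other well-expressed alpha subunits by not being called. ITGA5 had 438 and 467 CPM in WT, against 485 and 369 CPM in ICM 3-4 (log2 fold change -0.27, 95% interval -0.75 to 0.20). ITGA3 was at 77.7 and 98.7 CPM against 122 and 138 CPM (0.36, interval -0.06 to 0.78), and it was called higher with total-count scaling (0.56, adjusted p 0.0407). The make-up of the alpha subunits was described by their shares: ITGA5 held 45.8% ± 2.13 of their summed per-kilobase level in ICM 3-4, ITGA2 29.8% ± 7.16, ITGA3 11.1% ± 3.55, ITGAV 7.38% ± 3.46 and ITGA1 1.62% ± 0.456 (SD, n = 2). Per kilobase of the longest transcript, ITGA5 held 51.1% and ITGA2 22.1%. The alpha subunits together stood at 248 ± 10.9 CPM per kilobase in WT and 124 ± 29.4 in ICM 3-4, and the beta subunits at 410 ± 40.9 and 182 ± 8.07 (n = 2 each), with ITGB1 at 76.0% ± 13.7 of the beta sum.

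FLNC, the filamin best known from striated muscle, rose most (chromosome 7, 128830377 to 128859274). It had 224 and 267 CPM in WT, against 1422 and 1855 CPM in ICM 3-4, a log2 fold change of 2.54 (SE 0.21, adjusted p 1.06e-04). Its paralogue FLNA was at 1908 and 2409 CPM against 2025 and 2013 CPM and was not called (-0.29, 95% interval -0.73 to 0.15). The ratio of FLNC to FLNA per kilobase was 0.134 and 0.126 in WT, 0.115 and 0.124 in siHMGB2, and 0.801 and 1.05 in ICM 3 and ICM 4.

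The talins moved apart too. TLN1 was at 494 and 583 CPM in WT and 1162 and 1299 CPM in ICM 3-4 (log2 fold change 1.00, SE 0.18, adjusted p 0.00311), and TLN2, the talin of brain and muscle, was at 28.0 and 29.8 CPM against 19.7 and 18.6 CPM (-0.79, SE 0.20, adjusted p 0.0125). TLN1 exceeded TLN2 by 28.3 and 31.4 times per kilobase in WT and by 94.9 and 112 times in ICM 3-4. BCAR1 was the third member to rise, from 27.9 and 26.4 CPM to 52.0 and 52.1 CPM (0.74, SE 0.18).

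The other intracellular members were lower or not called. LIMS1 was at 247 and 248 CPM in WT and 62.4 and 67.4 CPM in ICM 3-4 (-2.13, SE 0.17, adjusted p 1.01e-04), and VCL at 687 and 888 CPM against 338 and 353 CPM (-1.38, SE 0.19, adjusted p 9.29e-04). FERMT2 (-1.31, SE 0.24), TNS1 (-0.91, SE 0.19), PARVA (-0.79, SE 0.21) and ACTN1 (-0.67, SE 0.20) fell as well. ILK (-0.42, interval -0.89 to 0.05), PTK2 (-0.25, interval -0.64 to 0.14) and PXN (0.30, interval -0.09 to 0.70) were not called.

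Leaving out each library in turn gave 16 to 25 called members: 2 higher and 14 lower without WT 2 (12.5% and 15.9% of all genes), 3 higher and 22 lower without ICM 3 (26.9% and 30%). All 7 calls lost in such a fit were among ITGA6, TLN1, TLN2, PARVA, BCAR1, ACTN1 and TNS1, in each case without a WT library (TLN1 had an adjusted p of 0.0553 without WT 1, and BCAR1 0.112 without WT 1 and 0.175 without WT 2). The other 15 kept their call. With all 14 libraries sharing a spread, 11 members were called, 2 higher and 9 lower, where 14.3% of all genes were higher and 16% lower.

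**Figure D3:**
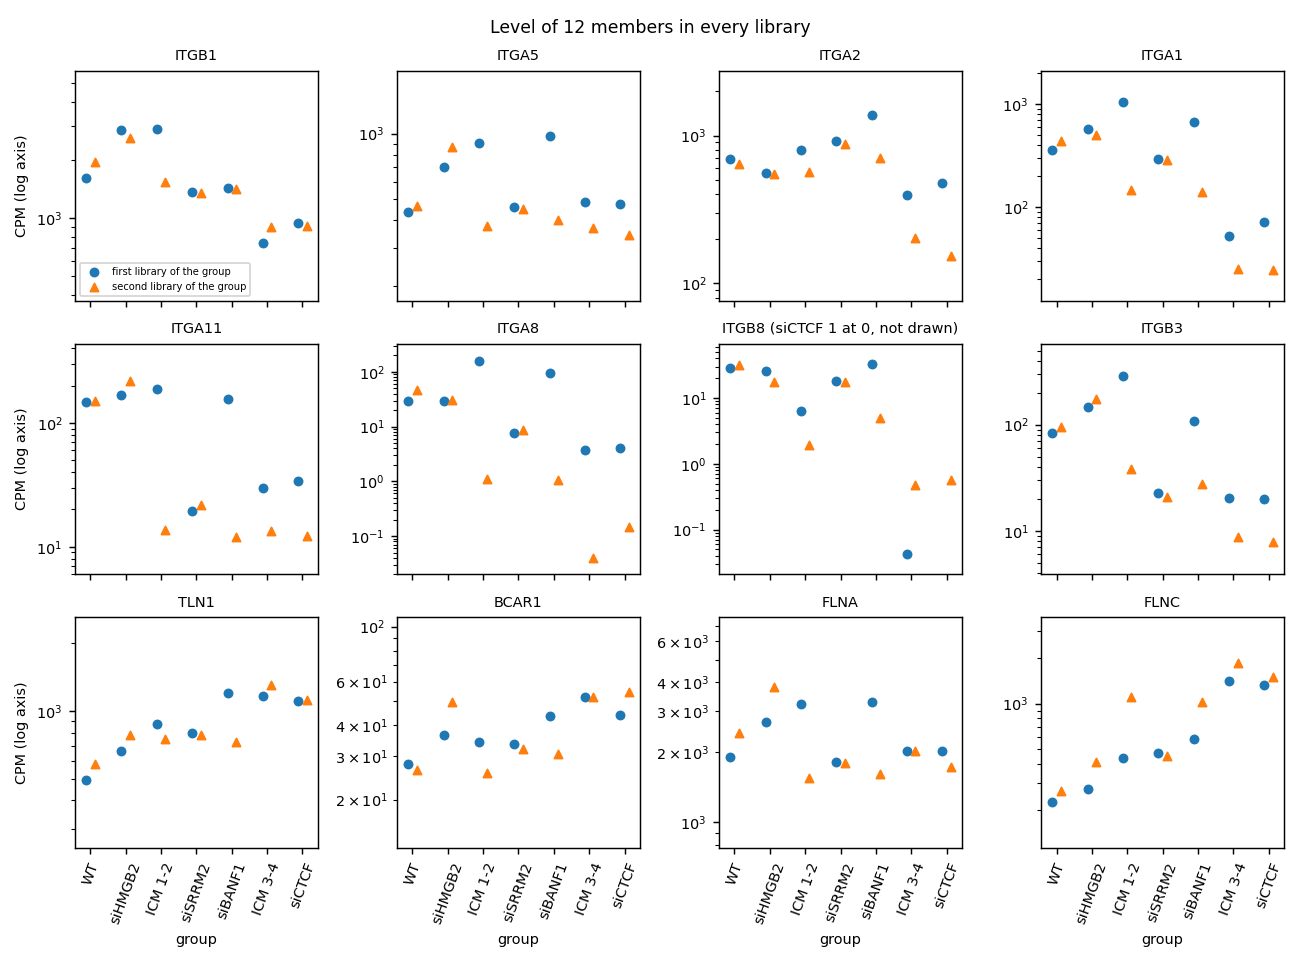
CPM of 12 members in each of the 14 libraries, on a log axis, by group. FLNC and TLN1 stand above WT in ICM 3-4 and siCTCF, ITGA1 and ITGB8 stand below it, and ITGB8 has no count in siCTCF 1.

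Sequences upstream of 3 members that moved differently are shown for context: ITGB1, the shared receptor subunit that was lower in ICM 3-4, FLNA, which was not called, and FLNC, which rose. Of the 32 members, 26 had an entry in the RefSeq promoter table (GRCh38.p14). Each line gives the 250 bases before the start annotated there, 5′ to 3′ on the gene's strand. Gene positions given elsewhere are from GENCODE, and their ends can differ from these starts. For 23 of the 26, the first 30 bases after the start lie in a GENCODE transcript of the gene. Capitals mark the TEAD-type motif GGAATG, on either strand, in ITGB1 and FLNC, and the CArG box, the motif of serum response factor, in FLNA.
ITGB1 (chr10:32958231-32958480, minus strand): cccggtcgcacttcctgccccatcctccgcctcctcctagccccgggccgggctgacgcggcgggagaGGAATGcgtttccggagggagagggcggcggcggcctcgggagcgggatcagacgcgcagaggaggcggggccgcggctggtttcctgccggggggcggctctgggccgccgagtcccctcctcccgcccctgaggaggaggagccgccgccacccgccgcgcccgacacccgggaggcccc
FLNA (chrX:154374635-154374884, minus strand): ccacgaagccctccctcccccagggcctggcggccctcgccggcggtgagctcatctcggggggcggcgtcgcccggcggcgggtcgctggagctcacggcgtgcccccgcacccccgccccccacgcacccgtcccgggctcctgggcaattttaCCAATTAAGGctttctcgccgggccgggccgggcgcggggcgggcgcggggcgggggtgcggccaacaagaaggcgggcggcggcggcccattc
FLNC (chr7:128830156-128830405, plus strand): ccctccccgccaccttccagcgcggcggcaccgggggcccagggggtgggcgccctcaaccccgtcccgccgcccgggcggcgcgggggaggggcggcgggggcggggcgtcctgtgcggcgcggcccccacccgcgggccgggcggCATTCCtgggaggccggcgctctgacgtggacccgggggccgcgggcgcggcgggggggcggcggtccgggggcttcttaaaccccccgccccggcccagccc

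Searched on both strands in these windows, GGAATG occurred in 5 of the 26 members (ITGA5, ITGA10, ITGB1, VCL and FLNC), or 19.2%, against 11.9% of 27305 promoters of the same length. The CArG box occurred in 1 (FLNA, 3.85%), against 1.14%. TGANTCA, the motif of AP-1, occurred in 2 (BCAR1 and ACTN4, 7.69% against 6.6%) and the GC box GGGCGG in 18 (69.2% against 42.3%). These are matches of letters within 250 bases and describe no binding. The 5 genes with GGAATG include members that fell, rose and were not called in ICM 3-4.

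The siHMGB2 and ICM 3-4 comparisons share the WT libraries, so their values are set side by side only. In ICM 3-4, 23.5% of all genes were called higher and 23.5% lower. The same breakdown for all genes higher in siHMGB2 is not given here, so the counts describe the members alone. Of the 20 members higher in siHMGB2, 12 were lower in ICM 3-4 (ITGA1, ITGA4, ITGA6, ITGA11, ITGB1, ITGB3, TLN2, FERMT2, PARVA, VCL, ACTN1 and TNS1), 3 were higher there too (TLN1, BCAR1 and FLNC) and 5 were not called there (ITGA3, ITGA5, ILK, PXN and FLNA). The remaining 7 members that fell in ICM 3-4 were not called in siHMGB2 (ITGA2, ITGA7, ITGA8, ITGAV, ITGB5, ITGB8 and LIMS1).

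**Figure D4:**
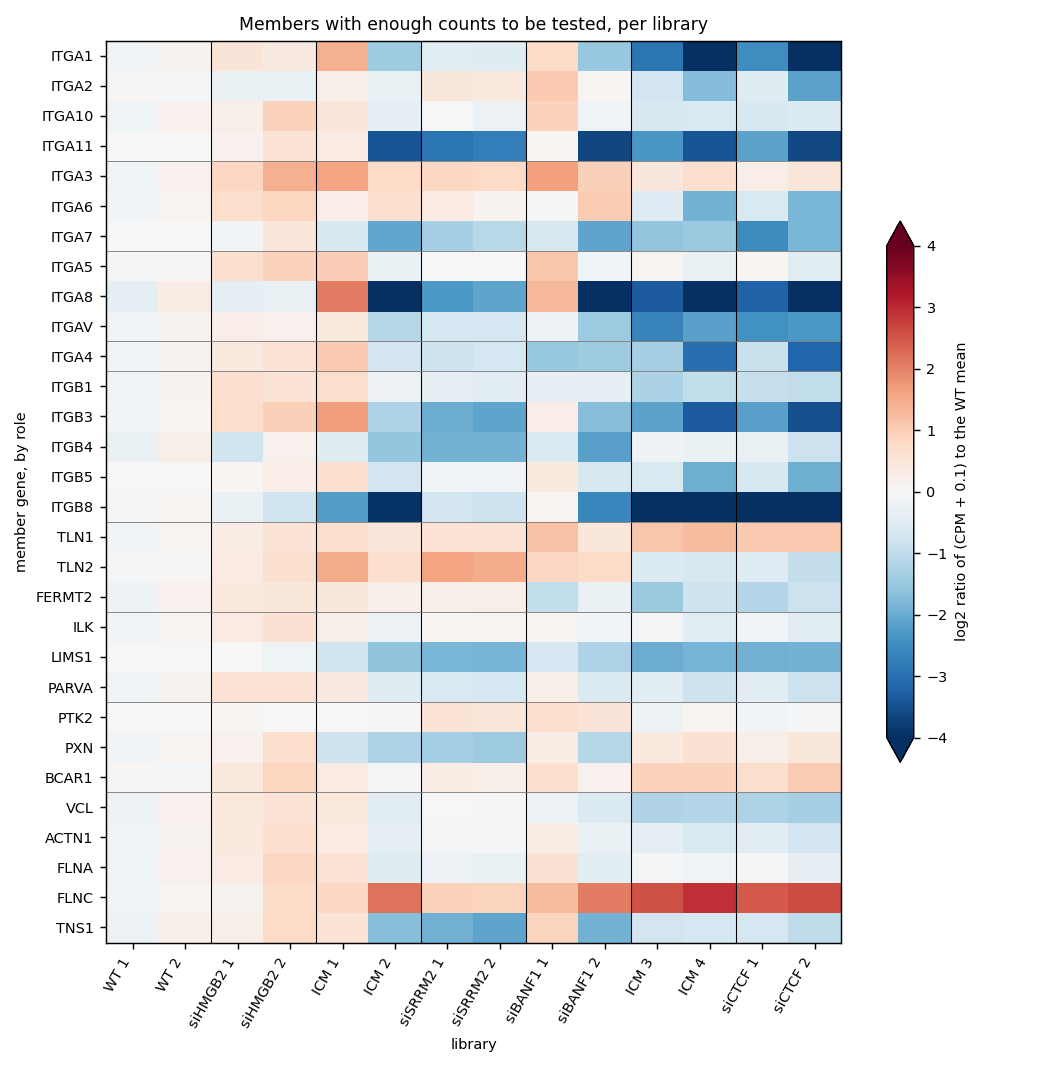
Log2 ratio of CPM (plus 0.1) to the WT mean for the 30 tested members (rows, by role) in the 14 libraries (columns). The siHMGB2 columns are mostly above WT, the ICM 3-4 and siCTCF columns mostly below it, and ICM 1 and ICM 2 differ from each other.

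ICM 1-2 against WT compares the same treatment label in the first set, and here the 2 libraries disagreed. Small RNA genes took 6.05% and 3.16% of the counts in ICM 1 and ICM 2, against 0.00831% and 0.00844% in WT. The treatment and this difference between libraries cannot be told apart. No member was called by the edgeR test, which called 0.173% of all genes, with 6 of 30 at an unadjusted p under 0.05 (ITGA3, ITGB8, TLN2, LIMS1, PXN and FLNC). DESeq2 called 2 members (FLNC and ITGB8) and 9.94% of all genes. ICM 1 exceeded ICM 2 for 27 of 30 members, and 14 members were at least 2-fold apart. The median log2 ratio to the WT mean was 0.44 in ICM 1 and -0.46 in ICM 2. It was -0.62 in ICM 3 and -0.82 in ICM 4. Over all genes tested the median was 0.02 in ICM 1, 0.22 in ICM 2, 0.03 in ICM 3 and 0.20 in ICM 4. Counts of members ordered, 2-fold apart or lying between single libraries, here and below, describe the members alone where no share over all genes stands beside them.

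ITGA8 was farthest apart, with 161 CPM in ICM 1 against 1.12 CPM in ICM 2 and WT at 29.3 and 47.1 CPM between them. ITGA1 had 1064 CPM in ICM 1 against 148 CPM in ICM 2 around 358 and 435 CPM in WT, ITGB3 at 288 and 38.3 CPM around 84.0 and 95.6 CPM, and ITGB1 at 2914 and 1542.5 CPM around 1622 and 1966 CPM. The 95% interval of the ITGB1 log2 fold change ran from -1.09 to 1.63. Tested against WT without ICM 2, ICM 1 had 19 members higher and 3 lower, where 22.4% and 22% of all genes were called in these directions. Without ICM 1, ICM 2 had 4 higher and 19 lower, against 27.9% and 28.8%. With a single library on one side, its spread is assumed to be that of WT.

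A few members lay on the same side of WT in both libraries. FLNC was at 438 and 1102 CPM against 224 and 267 CPM in WT (log2 fold change 1.52, 95% interval 0.28 to 2.76, adjusted p 0.189). ITGB8 was at 6.37 and 1.92 CPM against 28.9 and 32.3 CPM (-2.91, interval -4.69 to -1.13, adjusted p 0.139). LIMS1 was at 144 and 81.5 CPM against 247 and 248 CPM, PXN at 58.6 and 44.3 CPM against 97.3 and 112 CPM, ITGA3 at 266 and 153 CPM against 77.7 and 98.7 CPM, and TLN2 at 81.4 and 45.9 CPM against 28.0 and 29.8 CPM. In all, 6 members had both libraries above WT and 5 had both below, where 32.3% and 25% of all genes did so.

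**Figure D5:**
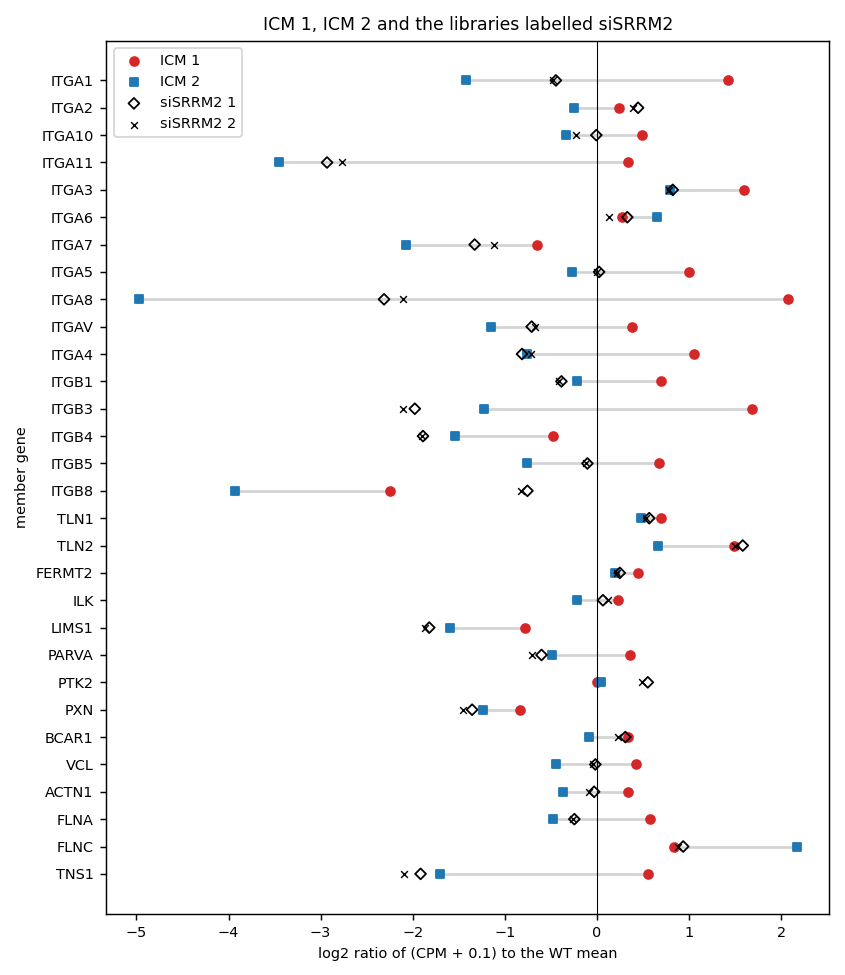
CPM of the 30 tested members in ICM 1, ICM 2 and the 2 siSRRM2 libraries, relative to WT on a log2 scale. ICM 1 lies above ICM 2 for 27 members, and both siSRRM2 libraries fall between them for 16.

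ICM 3-4 were compared with ICM 1-2 directly. The pairs belong to different library sets, so a different ICM effect and a difference between the sets cannot be told apart here. No member was called (edgeR, with 13 at an unadjusted p under 0.05, and 1.25% of all genes called). DESeq2 called 10 members and 12.3% of all genes. ITGB1 had a log2 difference of -1.61 (95% interval -2.87 to -0.35, adjusted p 0.146) and ITGA1 one of -4.18 (interval -6.49 to -1.86, adjusted p 0.0831), while FLNC had 0.98 (interval -0.26 to 2.22). The count moved with ICM 1 and ICM 2: without ICM 1, 1 member was higher and 8 lower (6.3% and 6.3% of all genes), and without ICM 2, 2 were higher and 20 lower (15.6% and 20.9%). Without ICM 3, 3 were lower (2.13%), and without ICM 4, 2 (1.43%).

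In the libraries labelled siSRRM2, compared with ICM 1-2, no member was called (edgeR, with 2 at an unadjusted p under 0.05, ITGB3 and ITGB8, and 0% of all genes called), and DESeq2 called ITGB3 and 1.07% of all genes. The 2 libraries labelled siSRRM2 were close, with no member 2-fold apart. Both lay between ICM 1 and ICM 2 for 16 members, above both for 4 (ITGA2, ITGB8, TLN2 and PTK2) and below both for 7 (ITGB1, ITGB3, ITGB4, LIMS1, PARVA, PXN and TNS1), where 20.5% of all genes lay above and 21% below. ITGB8 was at 18.1 and 17.2 CPM against 6.37 and 1.92 CPM in ICM 1-2 (log2 fold change 2.07, adjusted p 0.647), and ITGB3 at 22.7 and 20.8 CPM against 288 and 38.3 CPM (-2.94, adjusted p 0.651). ITGB1 was at 1373 and 1346 CPM against 2914 and 1542.5 CPM (-0.72, 95% interval -1.95 to 0.51), and ITGA2 was at 914 and 883 CPM against 793 and 564 CPM.

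Which ICM library served as the reference decided the direction of the comparison. Without ICM 1, 17 members were higher and 6 lower (26.1% and 26.4% of all genes), and without ICM 2, 3 were higher and 23 lower (32.2% and 30.7%). ITGA2 held 46.6% ± 0.404 of the alpha subunits per kilobase in siSRRM2, against 24.3% in ICM 1 and 40.6% in ICM 2. ITGA5 held 24.7% ± 0.0542, against 28.8% and 28.2%.

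The libraries labelled siBANF1 gave 0 calls against ICM 1-2 (edgeR, with 1 at an unadjusted p under 0.05, ITGA4, and 0% of all genes called) and 0 with DESeq2. Like ICM 1 and ICM 2 they differed from each other, with 15 members at least 2-fold apart. The median absolute log2 ratio was 0.42 between siBANF1 1 and ICM 1, with 6 members 2-fold apart, and 0.15 between siBANF1 2 and ICM 2, with 1 member, ITGB8, 2-fold apart. ITGA4 was at 4.97 and 5.34 CPM against 30.2 and 8.51 CPM in ICM 1-2 (log2 fold change -1.95, 95% interval -3.89 to -0.01). ITGB1 was at 1434 and 1417 CPM, below both ICM libraries (interval -2.26 to 0.94). PTK2 was at 166 and 144 CPM, above 101 and 104 CPM in ICM 1-2 (0.61, SE 0.44). No interval was narrow enough to lie within a 2-fold change. ITGA8 was called in opposite directions with a library left out: 5.53 without ICM 1 (0.0523% of all genes higher) and -6.35 without siBANF1 1 (0.0105% lower).

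The siCTCF libraries, with the insulator protein CTCF targeted, were compared with ICM 3-4. No member was called (edgeR, with 0 at an unadjusted p under 0.05, and 0% of all genes called), and DESeq2 called 0. For 19 of the 30 members the 95% interval of the log2 fold change lay within a 2-fold change. FLNC was at 1333 and 1493 CPM against 1422 and 1855 CPM (log2 fold change -0.20, interval -0.57 to 0.18), TLN1 at 1107 and 1118 CPM against 1162 and 1299 CPM (-0.13, interval -0.45 to 0.19), and ITGB1 at 948 and 909 CPM against 746 and 906 CPM (0.19, interval -0.17 to 0.55). For the members that differed between ICM 3 and ICM 4 the data allow larger changes: ITGA2 was at 479 and 152 CPM in siCTCF and 399 and 202 CPM in ICM 3-4 (interval -1.27 to 1.47).

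Library pairs of the second set were also compared, over the members only and with no share over all genes. Between siCTCF 1 and ICM 3, and between siCTCF 2 and ICM 4, no member was 2-fold apart (median absolute log2 ratio 0.09 and 0.15), whereas 8 members were 2-fold apart between ICM 3 and ICM 4 and 9 between siCTCF 1 and siCTCF 2. CTCF itself was at 71.5 CPM in siCTCF 1 and 23.0 CPM in siCTCF 2.

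Ligands of these receptors were taken from a second list. Of 25 listed extracellular ligands, 24 were tested. In siHMGB2, 14 rose and 2 fell (median log2 fold change 0.66), where 6.03% of all genes rose and 4.71% fell. POSTN, a matricellular ligand of ITGAV integrins, rose from 69.2 and 83.5 CPM to 199 and 214 CPM (1.50, SE 0.14), COL5A1, a fibrillar collagen, from 421 and 578 CPM to 849 and 1344 CPM (1.20, SE 0.17), and TGFB1, released from its latent form by ITGAV integrins, from 134 and 137 CPM to 237 and 315 CPM (1.09, SE 0.15). COL3A1 fell from 2867 and 3606 CPM to 1312 and 1419 CPM (-1.18, SE 0.16).

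In ICM 3-4, 1 ligand rose and 21 of 24 fell (median -3.71), where 23.5% of all genes moved in each direction. COL6A3 was at 4656 and 5611 CPM in WT and 176 and 81.5 CPM in ICM 3-4 (-5.50, SE 0.42), COL4A1 at 3405 and 3681 CPM against 165 and 73.0 CPM (-5.07, SE 0.42), and COL3A1 at 2867 and 3606 CPM against 215 and 36.7 CPM (-4.85, SE 0.77). FN1, the main ligand of ITGA5, was named after its values were seen: it was at 5257 and 6569 CPM in WT, 9295 and 11445 CPM in siHMGB2 and 681 and 383 CPM in ICM 3-4. TGFB1 was the only ligand called in ICM 3-4 against ICM 1-2 (2.77). Its levels there were 216 and 179 CPM, against 32.2 and 19.2 CPM in ICM 1-2.

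Other adhesion components, a list of 40 genes of which 39 were tested, had 19 higher and 0 lower in siHMGB2 (median 0.43, with 6.03% and 4.71% of all genes called). In ICM 3-4, 8 were higher and 18 lower (median -0.48). The 8 of 39 are close to the 23.5% of all genes that were higher. The 18 of 39 are a larger share than the 23.5% that were lower. LIMS2, the second PINCH gene, rose from 8.25 and 14.05 CPM to 24.7 and 33.9 CPM in siHMGB2 (1.46, SE 0.18). The scaffold NEDD9, a relative of BCAR1, rose from 15.5 and 18.5 CPM to 34.2 and 38.0 CPM (1.15, SE 0.15), and TGFB1I1 (Hic-5), a relative of paxillin, from 82.3 and 93.0 CPM to 156 and 190 CPM (1.04, SE 0.14).

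In ICM 3-4 the adaptors CRK (1.16, SE 0.23) and CRKL (1.23, SE 0.16), which bind BCAR1 and paxillin, and GIT1 (1.28, SE 0.16) rose. EVL, an actin elongation factor, was at 31.3 and 32.1 CPM in WT and 2.68 and 2.13 CPM in ICM 3-4 (-3.91, SE 0.26), TNS3 at 189 and 238 CPM against 21.4 and 18.7 CPM (-3.60, SE 0.21), and KANK2, which links talin to microtubules, at 225 and 237 CPM against 38.1 and 28.9 CPM (-2.97, SE 0.22). Among leukocyte and platelet integrins and their kindlin FERMT3, 9 genes, 7 were under 1 CPM in WT. The others were ITGAE, at 17.2 and 17.7 CPM in WT, and FERMT3, at 2.32 and 1.89 CPM. Of the 5 tested, 0 rose and 1 fell in siHMGB2, and 1 rose and 1 fell in ICM 3-4.

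Marker genes of cell types moved with these comparisons, and their part in the adhesion results was not tested. Over all genes, 6.03% were called higher and 4.71% lower in siHMGB2, and 23.5% in each direction in ICM 3-4. The summed level of 6 smooth muscle markers was 160 to 262 CPM in WT and 448 to 569.7 CPM in siHMGB2, where 4 of 4 tested rose, while MYH11 was at 0 in WT and siHMGB2. In ICM 3-4 the sum was 177 to 228 CPM, with 1 higher (SMTN) and 3 lower. The 8 fibroblast markers summed to 16430 to 22303 CPM in WT, 26419 to 31318 CPM in siHMGB2 (4 higher, 1 lower) and 2013 to 4011 CPM in ICM 3-4 (0 higher, 7 lower). Most of these sums was COL1A1 and COL1A2, which are also in the ligand list. In siHMGB2 the log2 fold change was above 0 for 4 of the 8 markers and below 0 for 4. PDGFRA was at 1555 and 1791 CPM in WT and 1099 and 877 CPM in siHMGB2.

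The 8 epithelial markers summed to 57.3 to 61.3 CPM in WT, 74.1 to 102 CPM in siHMGB2 (2 of 6 tested higher) and 194 to 219 CPM in ICM 3-4 (2 higher, 2 lower), nearly all of it KRT8 and KRT18, with CDH1 at 0 in ICM 3-4. Endothelial markers (6 genes) summed to 75.1 to 89.7 CPM in WT, 62.7 to 78.7 CPM in siHMGB2 (0 of 4 called) and 2.96 to 16.2 CPM in ICM 3-4 (4 of 4 lower). Most of these sums was TEK, at 67.3 and 81.8 CPM in WT and 15.3 and 2.88 CPM in ICM 3-4. The 6 leukocyte markers summed to 40.7 to 41.8 CPM in WT, 44.0 to 48.6 CPM in siHMGB2 (0 higher and 1 lower of 3) and 96.1 to 105 CPM in ICM 3-4 (1 higher, 1 lower), mostly CD68.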

How the data were processed

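RNA-seq of 14 libraries was analysed from gene counts deposited by the authors. STAR 2.7.3a, HTSeq 0.12.4, DESeq2 1.36.0 and hg38 are named, with no role given, per the submitters' processing notes. Counts are raw, 1 value per gene symbol. The 5 lines that name no gene, 12.8% to 41.8% of all lines' counts, were left out, and CPM were taken from the remaining total. Levels between genes are per kilobase of exon (GENCODE v29). Groups came from the labels.

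The 7 comparisons (2 libraries against 2) were tested with edgeR 4.0.16 (R 4.3.3, limma 3.58.1): TMM scaling, filterByExpr over the 7 groups (19126 genes), a quasi-likelihood F test on the compared libraries (2 residual degrees of freedom) and Benjamini-Hochberg adjustment over all genes, called under 0.05. Each gene's spread was moderated with the spread of the other genes tested, so p-values, standard errors and intervals rest in part on other genes. Standard errors are those implied by the F statistic, and 95% intervals use the t quantile of the fit. The script was tested on simulated data.

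Members and lists were chosen with earlier results of these data known. List genes were named as the 3 largest called changes per direction with a mean of at least 10 CPM, and members as the 4 largest called changes per direction with a mean of at least 1 CPM, ITGB1 and the most abundant member per role. Other members, and FN1, were given after their values were seen. Alternatives were relative log expression and total-count scaling, no low-count filter, DESeq2 1.42.0, all libraries in 1 fit, protein-coding genes, a replicate block, each library left out, and the longest transcript. Libraries held 22336161 to 58257456 gene counts.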

Additional observations from a re-analysis of the deposited data

Results flagged for a closer look

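For 4 members both ICM 1 and ICM 2 lay on one side of both WT libraries and both ICM 3 and ICM 4 on the other, 13.3% of the 30 tested, where 7.83% of all genes did so. The log2 difference of ICM 3-4 from ICM 1-2 was -1.64 for ITGA6 (adjusted p 0.147), -1.90 for TLN2 (adjusted p 0.0911), -1.60 for FERMT2 (adjusted p 0.107) and 1.365 for PXN (adjusted p 0.131). The edgeR test of the difference itself called none of the 4 at an adjusted p of 0.05. TLN2 stood at 81.4 and 45.9 CPM in ICM 1-2, 28.0 and 29.8 CPM in WT and 19.7 and 18.6 CPM in ICM 3-4. PXN stood at 58.6 and 44.3 CPM, 97.3 and 112 CPM, and 138 and 158 CPM in these groups.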

How the results depend on the processing

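The count of called members in ICM 3-4 against WT was 22 and became 11 with all 14 libraries in 1 fit, and 16 to 25 with a library left out, where 47%, 30.3% and 28.4% to 56.9% of all genes were called. In siHMGB2 against WT it was 20 and became 0 in the 14-library fit and 5 to 21 with a library left out (10.7%, 0% and 4.03% to 13.8% of all genes). In ICM 1-2 against WT, 0 became 2 without the low-count filter (8.88% of all genes), 2 with DESeq2 (9.94%), 2 in the 14-library fit (13.5%), and 0 to 23 with a library left out (0.465% to 56.7%). In ICM 3-4 against ICM 1-2, 0 became 11 without the filter (9.61%), 10 with DESeq2 (12.3%), 9 in the 14-library fit (19.5%), and 2 to 22 with a library left out (1.93% to 36.5%). In siSRRM2 against ICM 1-2, 0 became 1 with DESeq2 (1.07%) and 0 to 26 with a library left out (0% to 62.9%), and in siBANF1 against ICM 1-2 0 to 1 (0% to 0.0523%). The siCTCF count was 0 in every setting run. Of the members called in siHMGB2 or ICM 3-4 against WT, 0 changed sign in the settings run. The balance of calls did turn with the ICM library left out, from 4 higher and 19 lower (without ICM 1) to 19 higher and 3 lower (without ICM 2) in ICM 1-2 against WT, and from 17 and 6 to 3 and 23 in siSRRM2. ITGA8 in siBANF1 was called at 5.53 without ICM 1 and at -6.35 without siBANF1 1. Per kilobase of the longest transcript, the ITGA2 share moved from 34.3% to 27.3% in WT and from 29.8% to 22.1% in ICM 3-4, and the ITGA5 share from 24.1% to 28.9% and from 45.8% to 51.1%. With the replicate number as a block the count was 1 in ICM 1-2 against WT (7.56% of all genes), 22 in siHMGB2 (12%), 2 in siSRRM2 (ITGB3 and ITGB8, 0.539%) and 0 in siBANF1 (0.00523%). For siCTCF the labels give no shared numbers, and a block by order (ICM 3 with siCTCF 1, ICM 4 with siCTCF 2) gave 0 (0.0209%). Deviations of same-numbered libraries correlated at 0.792 for siBANF1, -0.003 for siSRRM2, 0.042 for siHMGB2 and -0.072 for ICM 1-2 with WT, and those matched by order at 0.417 for siCTCF. The labels name no shared batch, so neither numbers nor order are taken as pairs. No block was fitted for ICM 3-4 against WT or against ICM 1-2, which share no replicate numbers. With 2 libraries a group and few counts, ITGB8, ITGA8 and ITGB4 limit the precision in ICM 3-4. The cause of these shifts was not tested.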
